A study of Mus musculus with 12 samples.

Results

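Peaks of the histone variant H2A.Z whose middle lay 100 to 300 bp downstream of the transcription start site to which the authors assigned them were examined in the nucleus accumbens of the mouse. They were chosen by this distance alone, on chromosomes 1 to 19, in each of 4 deposited peak lists. They numbered 9337 peaks at 6159 genes, out of 59069 peaks in the 4 lists. Each condition is named by its first and then its second treatment: saline then saline (SS, labelled saline), saline then cocaine (SC, acute), cocaine then saline (CS, withdrawal) and cocaine then cocaine (CC, challenge). Each had 3 samples and 1 peak list. Genotype, strain, age, sex, dose and interval are not given in the labels used here, and nothing in them says whether the 3 samples came from separate animals. The lists carry no values per sample, so no difference between conditions could be tested, and each interval below covers the counting of peaks or genes only.

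H2A.Z replaces the ordinary histone H2A in nucleosomes that flank the start sites of many genes. The first nucleosome downstream of a start site, which RNA polymerase II meets as it leaves the promoter, is a common site of H2A.Z, and the nucleosome on the other side of the nucleosome-depleted start is another. The variant is deposited by the SRCAP and p400 complexes and removed by others such as INO80 and the chaperone ANP32E. The nucleus accumbens is a part of the ventral striatum, in the reward circuit, in which medium spiny neurons are the main neuronal type. A peak list measures neither expression nor cell makeup, so the tissue label could not be checked against expressed markers. Of 20 medium spiny neuron marker genes, 17 had a promoter peak (a peak middle within 1000 bp of a start site) in SS and 15 in SC.

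Promoter sequences show where the peaks of the cocaine-history lists sit relative to the start. The first 4 promoters belong to the strongest genes with a downstream peak in both CS and CC, and the others to the strongest genes of CS with a second peak upstream of the same start site. A promoter sequence was matched where its start lay within 100 bp of the authors' start. Each line gives 250 bases before to 50 bases after the RefSeq start (GRCm38.p6, the assembly that mm10 names), with bases under any CS or CC peak in capitals and all others in lower case. Mdn1 lies at chr4:32656869-32657168 on the plus strand, Sass6 at chr3:116594708-116595007 on the plus strand, Mrm1 at chr11:84819466-84819765 on the minus strand, Pced1a at chr2:130424239-130424538 on the minus strand, Slc29a2 at chr19:5023756-5024055 on the plus strand and Alkbh8 at chr9:3334981-3335280 on the plus strand.
Mdn1: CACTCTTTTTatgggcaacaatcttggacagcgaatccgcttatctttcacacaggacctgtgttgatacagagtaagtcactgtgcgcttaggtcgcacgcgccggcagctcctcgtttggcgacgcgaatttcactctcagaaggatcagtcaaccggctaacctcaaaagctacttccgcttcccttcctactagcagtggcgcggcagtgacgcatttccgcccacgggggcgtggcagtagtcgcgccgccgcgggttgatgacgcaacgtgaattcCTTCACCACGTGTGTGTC
Sass6: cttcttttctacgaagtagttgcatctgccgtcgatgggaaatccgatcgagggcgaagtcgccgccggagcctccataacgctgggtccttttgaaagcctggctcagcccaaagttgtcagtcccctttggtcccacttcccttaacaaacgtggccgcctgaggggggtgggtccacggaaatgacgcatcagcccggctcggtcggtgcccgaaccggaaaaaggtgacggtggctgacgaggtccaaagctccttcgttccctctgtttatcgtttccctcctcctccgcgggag
Mrm1: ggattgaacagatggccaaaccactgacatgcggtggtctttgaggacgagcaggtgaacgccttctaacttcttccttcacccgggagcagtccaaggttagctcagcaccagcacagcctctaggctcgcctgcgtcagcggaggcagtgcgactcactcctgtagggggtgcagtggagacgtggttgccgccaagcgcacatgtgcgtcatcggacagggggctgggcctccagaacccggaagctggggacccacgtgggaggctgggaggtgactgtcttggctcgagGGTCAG
Pced1a: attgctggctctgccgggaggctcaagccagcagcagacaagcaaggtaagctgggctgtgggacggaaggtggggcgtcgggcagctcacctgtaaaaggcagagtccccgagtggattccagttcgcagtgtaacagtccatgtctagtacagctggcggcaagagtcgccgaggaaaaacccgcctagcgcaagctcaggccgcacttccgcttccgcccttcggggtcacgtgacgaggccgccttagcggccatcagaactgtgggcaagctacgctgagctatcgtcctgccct
Slc29a2: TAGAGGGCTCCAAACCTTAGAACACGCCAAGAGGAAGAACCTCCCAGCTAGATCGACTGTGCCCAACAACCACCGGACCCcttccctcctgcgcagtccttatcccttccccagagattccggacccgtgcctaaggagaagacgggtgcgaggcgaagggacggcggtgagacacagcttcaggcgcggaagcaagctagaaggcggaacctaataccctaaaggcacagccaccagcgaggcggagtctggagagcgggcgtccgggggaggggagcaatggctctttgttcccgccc
Alkbh8: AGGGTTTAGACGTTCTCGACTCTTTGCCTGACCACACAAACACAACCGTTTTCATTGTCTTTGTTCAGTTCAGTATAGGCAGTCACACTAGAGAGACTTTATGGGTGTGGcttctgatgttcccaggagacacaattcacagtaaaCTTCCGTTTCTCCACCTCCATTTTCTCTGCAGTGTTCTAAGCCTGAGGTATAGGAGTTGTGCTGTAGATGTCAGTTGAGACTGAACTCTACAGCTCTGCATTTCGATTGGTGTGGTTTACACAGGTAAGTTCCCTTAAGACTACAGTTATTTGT

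At Mdn1, which encodes a ribosome assembly ATPase, capitals stand at both ends of the stretch and 28 of 300 bases are covered, with the bases just before the RefSeq start left free. Sass6, a centriole duplication gene, and Pced1a have 0 covered bases, and Mrm1, a mitochondrial ribosomal RNA methyltransferase gene, has 6, all at its downstream end. Their CS and CC peaks lie beyond the printed stretch or only touch it. At Slc29a2, a nucleoside transporter gene, 80 bases at the upstream end are covered by the upstream peak, and its downstream peak again lies beyond the stretch. At Alkbh8, a tRNA-modifying enzyme gene, 264 bases are covered. The RefSeq start lies 91 bases downstream of the authors' start there, and the capitals join the CS pair with a CC peak, at 3335127 to 3335268, that includes the authors' start. The authors' lists do not say whether positions count from 0 or 1, so the borders of the capitals may be off by 1 base.

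Among compared stretches of about 200 bp, the downstream window was the most densely filled in CS and CC, but not in SS or SC. SS held 3513 such peaks, 14.5% of its 24190 autosomal peaks (95% interval 14.1 to 15.0%), and SC held 3412 of 22584 (15.1%, 14.6 to 15.6%). CS held 1306 of 6238 (20.9%, 19.9 to 22.0%) and CC 1106 of 4670 (23.7%, 22.5 to 24.9%). Per 10 bp there were 174.8 peak middles in SS and 169.8 in SC, against 65.0 in CS and 55.0 in CC. Within 100 bp of the start on either side the same counts were 352.9, 332.1, 51.0 and 40.4. In SS and SC the stretch around the start was thus the denser place, while in CS and CC the downstream window was. In CS the dense part began before the window. The 50-bp bin at 50 to 100 bp held 380 CS middles and that at 100 to 150 bp 379, against 200 in the 50 bp before the start. In CC these bins held 289, 339 and 155 middles. The stretch 100 to 300 bp upstream of the start held 83.1, 78.1, 48.9 and 30.0 middles per 10 bp, fewer than the downstream window in all 4 lists.

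**Figure D1:**
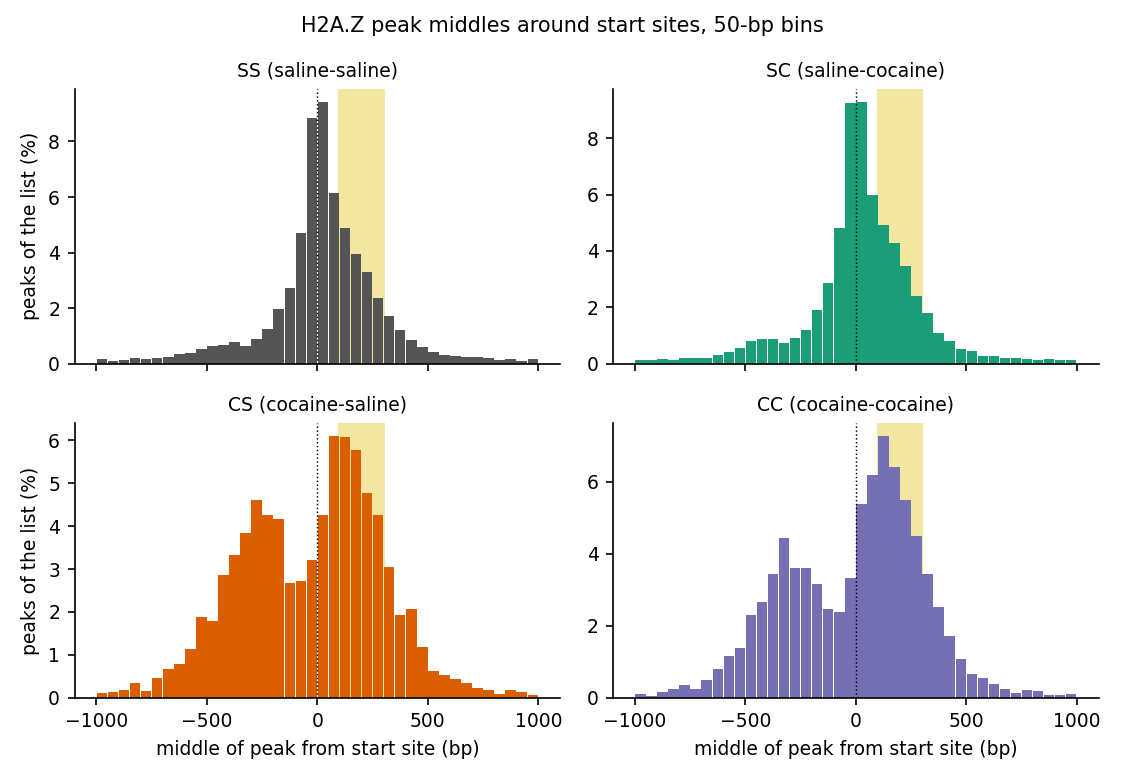
Share of each list's autosomal peaks (y axis, percent) by the distance of the peak middle from the assigned start site (x axis, bp, 50-bp bins, downstream positive), with the window from 100 to 300 bp shaded. SS and SC have 1 summit at the start site, and CS and CC have a summit downstream, at or next to the shaded window, and a smaller one upstream with a dip between them.

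The higher share in CS and CC was not seen with lists of equal length. It was seen with a stricter q-value, but the CS interval then overlapped that of SC. Each list was limited to its 4670 strongest peaks, which is the whole CC list and changes length and strength together in the others. The share was then 23.9% in SS and 24.0% in SC, against 20.7% in CS and 23.7% in CC. The order of the windows did not turn with it. In the lists of equal length 53.0% of SS and 53.5% of SC peaks lay within 100 bp of the start, against 16.0% of CS and 17.2% of CC peaks. Among peaks with a −log10 q of at least 5, the share in the downstream window was 14.8% in SS and 15.4% in SC (14.9 to 15.9%). It was 17.5% in CS (15.2 to 20.0%) and 18.5% in CC (16.0 to 21.3%). The share also varied between chromosomes, from 12.1 to 17.5% in SS, 11.9 to 18.8% in SC, 18.3 to 26.6% in CS and 16.9 to 28.7% in CC. At the upstream border of the window, the 10 bp just outside held 265 SS, 267 SC, 68 CS and 61 CC middles and the 10 bp just inside held 242, 227, 70 and 72. At the downstream border the 10 bp just inside held 99, 92, 55 and 32 middles and the 10 bp just outside 78, 94, 35 and 41, so neither border fell on a step common to the lists.

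Downstream peaks in SS and SC were broad intervals that included the start site, and those in CS and CC were short intervals that did not reach it. The median width was 847 bp in SS (quartiles 583 and 1110), 768 bp in SC (547 and 1015), 114 bp in CS (84 and 158) and 108 bp in CC (80 and 147). The median SS peak ran from 239 bp upstream to 610 bp downstream of the start, and the median SC peak from 202 bp upstream to 571 bp downstream. In CS the median edges were 121 and 254 bp downstream, and in CC 126 and 248 bp downstream. The interval included the start site in 3247 SS peaks (92.4%, 91.5 to 93.3%) and 3086 SC peaks (90.4%), but in 18 CS peaks (1.38%, 0.819 to 2.17%) and 18 CC peaks (1.63%, 0.967 to 2.56%). The rule puts each middle at least 100 bp past the start, so peaks as short as these could hardly include it. These shares therefore follow from the rule and the widths of each list. Peaks 100 to 300 bp upstream included the start in 93.4, 93.3, 1.43 and 0.498% of cases. In SS and SC the distance of the middle thus placed a broad domain that extended further downstream than upstream, whereas in CS and CC it placed the whole peak.

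**Figure D2:**
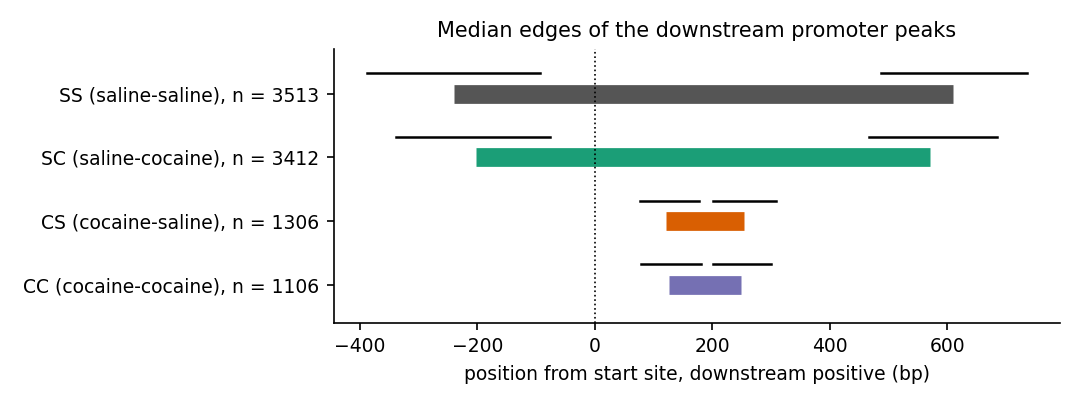
Median upstream and downstream edges (coloured bar ends) of peaks 100 to 300 bp downstream of the start site in each list, with the quartiles of each edge as thin black lines. The x axis is the position from the start site in bp. The SS and SC bars cross 0, and the CS and CC bars start 121 and 126 bp downstream of it.

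Width did not set the downstream peaks apart from other promoter peaks in CS and CC. Peaks within 100 bp of the start had a median width of 1068 bp in SS, 1019 bp in SC, 106 bp in CS and the same in CC. Those 100 to 300 bp upstream had medians of 1087, 1055, 113 and 112 bp. In SS and SC the downstream peaks were therefore narrower than their neighbours on the start, and in CS and CC peaks of all 3 places were of similar width. Inside the window, SS peaks were widest nearest the start, with a median of 967 bp at 100 to 149 bp and 830, 742 and 778 bp in the next 50-bp steps. In CS the same steps had 112, 115, 121 and 108 bp. The shortest downstream peak spanned 321 bp in SS, 315 bp in SC, and 69 and 67 bp in CS and CC, so the lists differ in the shortest interval they hold, and how much of the difference in width comes from peak calling was not tested.

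Strength was read as the authors' fold enrichment over background, which ranks peaks within a list and is on no common scale between lists. The median downstream peak stood at the 65.8 percentile of the SS list (fold 5.30) and at the 65.8 percentile of SC (6.13), against the 46.9 percentile of CS (4.68) and the 48.0 percentile of CC (4.77). Peaks within 100 bp of the start stood at the 72.0, 71.4, 46.9 and 48.0 percentiles in the same order. Those 100 to 300 bp upstream stood at 63.3, 63.9, 46.9 and 50.8, so these ranks were not particular to the downstream peaks. By the authors' q-value, 99.4% of SS and 99.6% of SC downstream peaks had a −log10 q of at least 5, and 13.6% of CS and 14.2% of CC downstream peaks did. Of all autosomal peaks 23630 of 24190 in SS, 22106 of 22584 in SC, 1016 of 6238 in CS and 847 of 4670 in CC did. This split was thus one between whole lists and not particular to the downstream peaks. Ranks within CS and CC were coarse, because the 5 most common fold values were shared by 37.7% of the CS and 26.6% of the CC downstream peaks. In SS these 5 values covered 3.07%. The value 4.35 alone occurred 138 times in CS.

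The 10 strongest named downstream peaks of SS had folds from 15.8 to 13.6. Nek9, a mitotic kinase gene, had a fold of 15.8 and a width of 851 bp, at 85338777 to 85339628 on chromosome 12. Ext2, a heparan sulphate synthesis gene, had 15.3 and Ep400, the p400 ATPase gene that exchanges H2A.Z, had 14.4. They were followed by Pcbd2, Cnih4, Dhrs13, Terc, which encodes telomerase RNA, Nt5m, Depdc7 and the nuclear pore gene Nup50 at 13.6. Ext2, Pcbd2 and Terc also had a short downstream peak in CS (folds 4.35, 4.02 and 3.68), and Dhrs13 and Nt5m had one in CC (6.16 and 4.71). In SC the strongest were Chrna5, a nicotinic acetylcholine receptor subunit gene, with 17.7, the lysophosphatidic acid receptor gene Lpar3 with 17.6, and the helicase gene Mcm9 with 17.4. Foxi3, Ext2, Stk17b, Igfbp2, Phf10, Arhgap22 and Rmi2 followed, down to 16.6. All 10 of these SC genes also had a downstream peak in SS, as did 58.6% of all SC genes with a downstream peak.

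The strongest named downstream peaks of CS were those of Ubr1, a ubiquitin ligase gene (fold 7.03, 118 bp, middle 222 bp downstream), Ankrd35 (6.86), Mdn1 (6.76), the splicing helicase gene Ddx46 (6.69), Fam162a (6.69) and the complex I gene Ndufa8 (6.69). Adam22, Dhtkd1, the minor spliceosome gene Snrnp25 and the vacuolar ATPase gene Atp6v1d followed, down to 6.36. Ubr1 covered 120970332 to 120970450 on chromosome 2. In CC the strongest were Rnf220, another ubiquitin ligase gene (7.19), Smim26 (7.16), the tRNA methyltransferase subunit gene Trmt11 (6.89), Cdk5rap1 (6.89), Tango6 (6.89) and Lclat1 (6.80), then Pask, Fam58b, the tRNA-processing gene Elac2 and the checkpoint gene Rad1 at 6.53. Of these 20 genes, Mdn1, Dhtkd1, Snrnp25, Smim26, Trmt11, Tango6 and Pask had a downstream peak in both lists. Among all genes with a downstream peak, 21.6% of the CS genes had one in CC and 25.7% of the CC genes had one in CS. None of the 20 is among the 10 strongest of SS or of SC. Those lists hold 3419 and 3349 such genes, so this absence says little about the genes.

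A second peak upstream of the same annotated start site was uncommon. With its middle 1 to 1000 bp upstream of that start, it was found beside 74 SS downstream peaks (2.11%, 1.66 to 2.64%), 76 SC peaks (2.23%, 1.76 to 2.78%), 61 CS peaks (4.67%, 3.59 to 5.96%) and 42 CC peaks (3.80%, 2.75 to 5.10%). For peaks 100 to 300 bp upstream of a start, a second peak downstream of the same start was found in 1.32, 1.27, 5.80 and 5.64%. Each peak is annotated to 1 transcript, and many genes have several start sites, so flanking peaks of 1 promoter are often given different starts. Among the 178 CS and 157 CC downstream peaks with a −log10 q of at least 5, the share was 2.25 and 2.55%. Mdn1 is a case of 1 promoter with different starts: its CS peaks are centred 347.5 bp upstream and 111 bp downstream of 1 start but carry different annotated starts.

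In CS and CC the pairs at 1 start site were short peaks centred on either side of it. The upstream one reached over the start in 7 of the 61 CS pairs and 4 of the 42 CC pairs, such as those of Immp2l in CS and Klhl42 in CC. At Slc29a2 in CS they were centred 224 bp upstream (105 bp wide, fold 4.63) and 251 bp downstream (107 bp, 6.02), both under 1 SS peak of 1490 bp. At Msh6, a DNA mismatch repair gene, they lay 297 bp upstream and 190 bp downstream under an SS peak of 1309 bp. Bloc1s1, a gene of lysosome-related organelle assembly, had its CS pair at 135 bp upstream (fold 5.88) and 230 bp downstream (5.67), so here the upstream peak was the stronger. Alkbh8, Zfp128, Mcat, Ccndbp1, Immp2l and Thumpd2 were also among the 10 strongest CS pairs, with upstream peaks from 348 to 2 bp before the start. In CC the strongest were Smim26 (128 bp upstream and 221 bp downstream), Zfp791, the threonyl-tRNA synthetase gene Tars, Ccdc57 and the vesicle transport gene Vps13b, then Gstz1, Thada, Klhl42, Atoh7 and Kremen1. Vps13b and Thada had a pair at their start in both lists. In SS the pairs were of broader peaks, with median widths of 508 bp upstream and 590 bp downstream, against 125 and 96 bp in CS. The upstream peak was the stronger in 20 of the 74 SS pairs (median folds 3.54 upstream and 4.69 downstream) and 25 of the 76 SC pairs (3.67 and 4.35). In CS it was the stronger in 34 of the 61 pairs (4.68 and 4.59), but in CC in only 17 of the 42 (4.86 and 5.06). In the SS pairs with the strongest downstream peaks it was weaker: at Nup50 a peak of 552 bp and fold 3.27, 543 bp upstream, stood beside the downstream peak of fold 13.6, and at Rps6ka2, Dgat1, Lamc1 and Prkci the upstream folds were 2.35 to 3.11 beside 10.3 to 10.8. In SC the strongest pairs were those of Armc1, Khsrp, Lamc1, Rpl17 and Zyg11b.

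**Figure D3:**
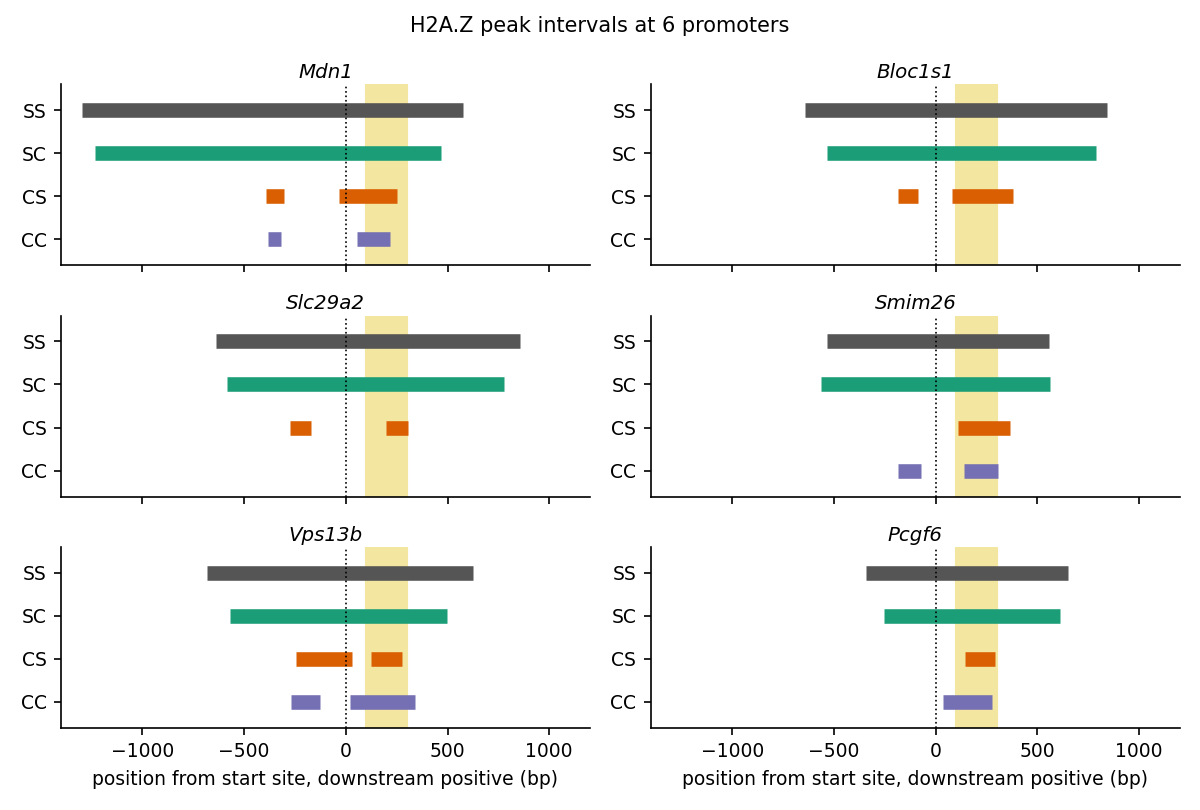
Peak intervals in the 4 lists at 6 promoters (bars, 1 row per list), with x the position from the authors' start site in bp and the window from 100 to 300 bp shaded. Mdn1, Bloc1s1, Slc29a2, Smim26 and Vps13b have short peaks centred on both sides of the start in CS, in CC or in both, under single broad SS and SC peaks, and Pcgf6 has a downstream peak in all 4 lists and none upstream.

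Counted by position alone, whatever start or gene a peak was assigned to, an upstream neighbour within 1000 bp was much more frequent. It stood beside 607 SS downstream peaks (17.3%, 16.0 to 18.6%), 652 SC peaks (19.1%, 17.8 to 20.5%), 327 CS peaks (25.0%, 22.7 to 27.5%) and 220 CC peaks (19.9%, 17.6 to 22.4%). The same gene name was given to 60.0% of these neighbours in SS and 61.2% in SC, against 66.7% in CS and 68.2% in CC. Counting by position was an alternative added after the data had been seen. Upstream peaks with the same gene name, whatever their start site, stood beside 15.3% of SS and 16.3% of SC, against 17.4% of CS and 14.2% of CC downstream peaks. Peaks 100 to 300 bp upstream of a start had a neighbour downstream of it in 6.29% of SS and 6.50% of SC, against 22.1% of CS and 21.1% of CC cases. In CS and CC a partner across the start was thus about as frequent seen from either side, with overlapping intervals, while in SS and SC it was more frequent seen from the downstream side.

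The neighbours differed in place and size. Their middles lay a median of 600 bp upstream of the start in SS and 566 bp in SC, but 334 bp in CS and 358 bp in CC. The median spacing between the middles of a pair was 804, 778, 521 and 551 bp in the same order. Neighbours 100 to 400 bp upstream made up 33 of the SS cases (5.44%) and 40 of the SC cases (6.13%), against 186 CS cases (56.9%) and 118 CC cases (53.6%). In CS 296 of the 327 pairs (90.5%, 86.8 to 93.5%) and in CC 204 of the 220 (92.7%, 88.5 to 95.8%) lay under 1 and the same SS peak. In SC this was 34.2% of the pairs. Downstream peaks with a neighbour were narrower and weaker than the others in SS (medians 556 against 934 bp, fold 4.36 against 5.70) and SC (523 against 844 bp, 4.42 against 7.48). In CS they were alike in the medians (115 against 113 bp, 4.68 against 4.68), as in CC (109 against 108 bp, 4.86 against 4.74).

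Genes with a start on the opposite strand upstream, that is bidirectional promoters, were frequent among the downstream peaks of CS and CC. A RefSeq start on the other strand lay within 1000 bp upstream of the start in 461 of 3419 SS peaks (13.5%, 12.4 to 14.7%), 14.6% of SC peaks (13.4 to 15.8%), 354 of 1274 CS peaks (27.8%, 25.3 to 30.3%) and 267 of 1084 CC peaks (24.6%, 22.1 to 27.3%). This was counted on the 18 autosomes that the promoter table covers. For peaks 100 to 300 bp upstream it was 9.16, 8.74, 6.20 and 7.45%, and for peaks within 100 bp of a start 14.7, 14.6, 21.6 and 17.7%. Among peaks over 300 and up to 500 bp downstream it was 14.5% in both SS and SC. There it was 26.1% in CS (22.2 to 30.2%) and 18% in CC (14.4 to 22.2%). In CS the high share was thus not particular to the peaks 100 to 300 bp downstream. A peak between a divergent pair of starts is given to 1 gene, so some of these downstream peaks are also upstream peaks of the other gene, and the part of this annotation in the difference was not tested. Downstream peaks with an upstream neighbour had such a start in 35.5% of SS and 34.1% of SC, against 33.9% of CS and 32.1% of CC cases, and those without one in 8.88, 10.0, 25.8 and 22.7%. At Fam162a in CS, for example, the neighbour 338.5 bp upstream was assigned to Ccdc58, the mitochondrial protein gene on its other side, and at Psmd13 the neighbour 209 bp upstream was assigned to the deacetylase gene Sirt3.

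**Figure D4:**
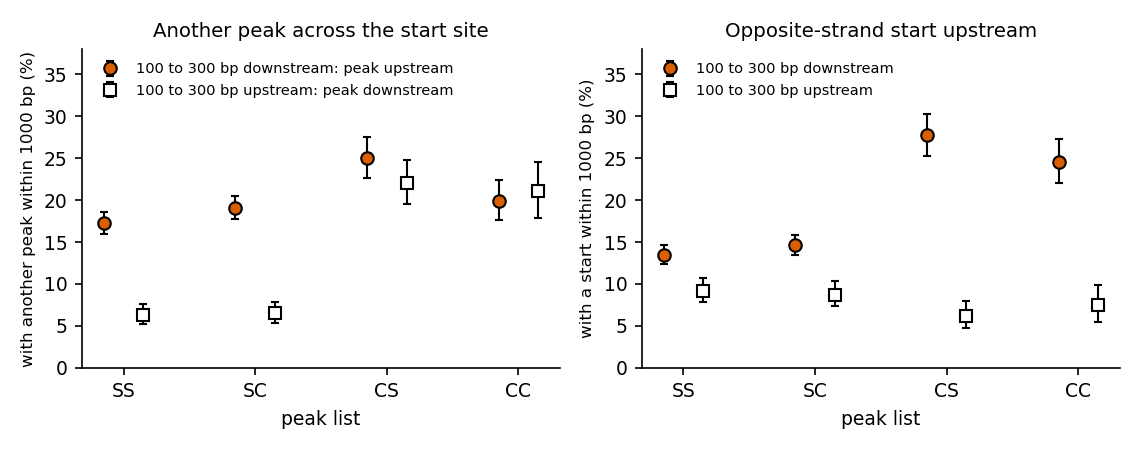
Left, share of peaks (percent, with 95% Clopper-Pearson intervals) that have another peak within 1000 bp on the other side of their start site, for peaks 100 to 300 bp downstream (filled circles) and 100 to 300 bp upstream (open squares) in each list. Right, share of the same peaks whose gene has an opposite-strand RefSeq start within 1000 bp upstream, where the circles of CS and CC (27.8 and 24.6%) lie above those of SS and SC (13.5 and 14.6%).

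Nearly all downstream peaks of the 3 lists with cocaine lay on an SS peak. An SS peak overlapped 3224 of 3412 SC downstream peaks (94.5%, 93.7 to 95.2%; all SC peaks 81.3%), 1287 of 1306 CS peaks (98.5%, 97.7 to 99.1%; all CS peaks 93.5%) and 1088 of 1106 CC peaks (98.4%, 97.4 to 99.0%; all CC peaks 94.4%). Peaks within 100 bp of the start were covered in 97.3% of SC, 98.6% of CS and 98.4% of CC cases. For peaks 100 to 300 bp upstream the shares were 95.3, 97.8 and 97.2%. High cover was thus shared by the promoter peaks nearest the start and not particular to the downstream peaks. The CS and CC downstream peaks lay whole inside SS peaks in 97.6 and 98.0% of cases. The SC downstream peaks, which are far broader than those of CS and CC, did so in 39.5%. With every list limited to its 4670 strongest peaks, SS peaks covered 90.1% of the SC, 25.6% of the CS and 29.7% of the CC downstream peaks, near the shares of all peaks of these shortened lists (88.4, 25.2 and 27.0%). Most CS and CC downstream peaks thus had none of the strongest SS peaks over them, as was so for CS and CC peaks in general.

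The SS peak that covered a CS or CC downstream peak was most often one centred within 100 bp of its own annotated start. It was itself a downstream peak in 2006 SC cases (62.2%; all covered SC peaks 16.5%), in 321 CS cases (24.9%, 22.6 to 27.4%; all covered CS peaks 14.9%) and in 281 CC cases (25.8%, 23.2 to 28.5%; all covered CC peaks 16.1%). It was centred within 100 bp of its annotated start in 25.9% of SC, 763 CS (59.3%) and 638 CC cases (58.6%). Among all peaks, 5834 CS and 4409 CC peaks were covered by an SS peak. SS peaks centred within 100 bp of a start held 2836 CS and 2122 CC peaks, counted by any overlap. Such cover was thus common among CS and CC peaks in general and not particular to the downstream peaks. It was centred 100 to 300 bp upstream in 3.26, 8.47 and 7.54%, and over 300 bp downstream in 8.06, 6.60 and 7.63%. Measured from the start of the covered peak, the middle of the SS peak lay a median of 160 bp downstream for SC, 22.5 bp for CS and 39.5 bp for CC. The spread was wide: in CS the quartiles were 105 bp upstream and 172 bp downstream, and the middle lay within 100 bp of that start in 498 of 1287 CS cases (38.7%) and 438 of 1088 CC cases (40.3%). The SS peak included that start in 94.0, 96.2 and 96.9% of cases. The CS peak lay in the downstream part of the SS peak, past its middle, in 77.6% of cases and the CC peak in 75.6%, and a median of 304 and 328 bp remained to the downstream edge of the SS peak. Because the covered peaks were chosen for lying downstream of the start, this position follows in large part from the rule.

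**Figure D5:**
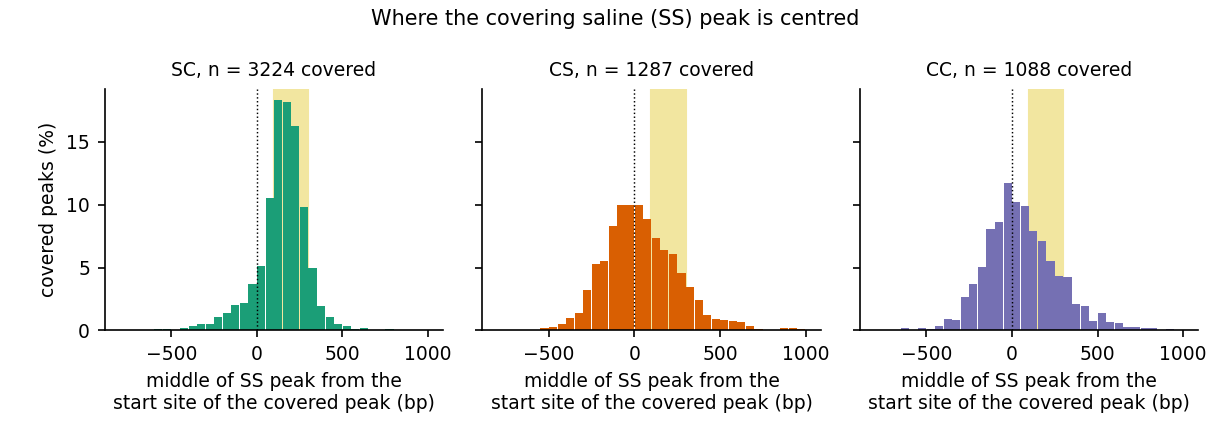
Position of the middle of the covering SS peak relative to the start site of the covered downstream peak (x axis, bp, 50-bp bins, downstream positive), as a share of the covered peaks of each list (y axis, percent), with the window from 100 to 300 bp shaded. SS peaks over SC downstream peaks have their median in the window (160 bp), and those over CS and CC peaks spread to both sides of the start, with medians of 22.5 and 39.5 bp.

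The covering SS peaks were broad and above the middle of the SS list. Their median width was 969 bp for SC, 1144 bp for CS and 1143 bp for CC, against 737 bp for all SS peaks. Their median fold was 5.77, 5.85 and 5.98, at the 70.6, 71.4 and 72.3 percentiles of SS. The SS peak carried the same gene name as the covered peak in 96.3% of SC, 86.9% of CS and 87.9% of CC cases, and the same start in 88.0, 59.5 and 61.7%. Under 378 CS downstream peaks (29.4%) and 266 CC downstream peaks (24.4%) the same SS peak held at least 1 other peak of that list, compared with 7.48% in SC.

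Read from the SS side, a downstream peak was no more often overlapped in CS than other SS peaks were. Of the 3513 SS downstream peaks 743 overlapped a CS peak (21.2%, 19.8 to 22.5%; all SS peaks 20.4%), 643 a CC peak (18.3%, 17.0 to 19.6%; all SS peaks 15.8%) and 3066 an SC peak (87.3%; all SS peaks 75.6%). SS peaks within 100 bp of a start overlapped a CS peak in 33.3% and a CC peak in 25.7% of cases, and those 100 to 300 bp upstream in 32.5 and 24.9%. Among the SS downstream peaks, sorted by fold into 5 groups of equal size, a CS peak lay on 6.97% of the weakest, then 15.6, 35.9, 23.5 and 23.8% of the strongest. For CC the order was 5.41, 13.8, 30.6, 19.5 and 22.2%. The group in the middle, with SS folds from 4.78 to 6.27, was thus the most often overlapped, and the strongest group was not. These groups also differed in width, with medians of 470, 668, 882, 1076 and 992 bp from the weakest to the strongest. The part of width in the shares was not tested. For SC the share rose from 63.0% in the weakest group to 702 of 702 in the strongest.

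Inside SS downstream peaks, the CS and CC peaks lay mostly downstream of the start as well. Of 868 CS peaks under them, measured from the start of the SS peak, 35.8% lay 100 to 300 bp downstream, 27.2% further downstream, 13.5% within 100 bp and 23.5% more than 100 bp upstream. Of 712 CC peaks the shares were 37.2, 28.8, 16.9 and 17.1%. Under SS peaks centred within 100 bp of a start, by contrast, 50.8% of 2836 CS peaks and 47.0% of 2122 CC peaks lay more than 100 bp upstream, and 24.3 and 27.0% lay 100 to 300 bp downstream. The position of a short peak therefore moved with the position of the broad peak that held it. A short peak can lie only where its broad peak lies, and the part of this in the difference was not tested.

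A few downstream peaks had no SS peak over them: 188 in SC, 19 in CS and 18 in CC. In CS the strongest named ones were Fkbp14, an endoplasmic reticulum folding gene (fold 5.08, at 54592852 to 54592985 on chromosome 6), the bicarbonate transporter gene Slc4a7 (4.54), Sec24b (4.50), Grwd1 (4.50) and the polyubiquitin gene Ubb (4.35). In CC they were Lin54 (5.71), Txndc12 (5.22), the class I histocompatibility gene H2-Q5 (5.08), the fatty acid binding protein gene Fabp5 (5.06) and the neuronal RNA-binding protein gene Elavl2 (4.82). Fkbp14, Sec24b and Lin54 had a downstream peak in both CS and CC. Of these 10 CS and CC genes, 5 had an SS promoter peak elsewhere: Slc4a7 (fold 11.7), Sec24b (8.25), Elavl2 (6.35), Lin54 (4.65) and Fabp5. At Slc4a7 it was centred 389 bp downstream of another start site than that of the CS peak. Sec24b and Elavl2 had an SS downstream peak at another start site. Fabp5 had SS peaks centred 190 bp upstream and 578 bp downstream of the starts assigned to them. In SC the strongest without SS cover were Rsrc2 (6.17), the splicing gene Lsm4 (5.99), Cdc34b, H2-Q5 and Rbm4 (5.53 each), of which Lsm4 had an SS promoter peak (6.38).

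Gene by gene, downstream peaks were shared well between SS and SC and less between the other lists. There were 3419 such genes in SS and 3349 in SC, against 1294 in CS and 1091 in CC. These were 25.7, 26.6, 30.0 and 32.2% of the genes with any promoter peak in the list. Of the SS genes 1964 (57.4%) also had a downstream peak in SC (23.6% of all SS promoter genes did), 322 (9.42%) in CS (all 8.45%) and 285 (8.34%) in CC (all 7.25%). The 1964 genes were 58.6% of the SC genes (23.9% of all SC promoter genes). The 322 and 285 genes made up 24.9% of the CS genes and 26.1% of the CC genes, against 19.8 and 21.2% of all CS and CC promoter genes. CS and CC had 280 genes in common, 21.6% of the CS genes (13.0% of all CS promoter genes) and 25.7% of the CC genes (15.9% of all CC promoter genes). With lists of equal length the share also found in SS was 63.3% of SC, 6.56% of CS and 7.33% of CC genes, against 22.8, 6.51 and 7.08% of all promoter genes of the shortened lists.

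Having any promoter peak in another list was no more common for these genes than for all promoter genes, within the counting intervals, and in some pairs of lists less so. It held for 24.9% of SS downstream genes in CS (23.5 to 26.4%; all SS promoter genes 29.4%) and 21.1% in CC (19.7 to 22.5%; all 23.2%), and for 87.8% in SC (88.3%). Of CS downstream genes 86.7% had a promoter peak in SS (84.7 to 88.5%; all CS promoter genes 90.7%) and 41.7% in CC (41.2%). Of CC downstream genes 88.3% had one in SS (90.9%) and 51.3% in CS (52.4%). Of SC downstream genes 93.5% had one in SS (93.2%).

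Among the genes with a downstream peak in both CS and CC, those with the highest lower fold were Mdn1 (6.76 in CS, 6.16 in CC), Sass6 (5.57 and 5.80), Mrm1 (5.53 and 5.80), Brd8 (5.69 and 5.44), a bromodomain subunit gene of the p400 complex, and Pced1a (5.69 and 5.44). Ufsp2, the recombination gene Xrcc2, March2, Sfxn4 and the membrane protein insertion gene Emc2 came next. At Sass6 the CS peak covered 116595078 to 116595212 and the CC peak 116595175 to 116595323 on chromosome 3, so they overlapped in part, under an SS peak of 1385 bp centred 1 bp downstream of its annotated start. At Pced1a the SS peak was 1403 bp wide and at Mrm1 1644 bp. March2 and Emc2 had SS downstream peaks too (folds 8.26 and 6.29), whereas the SS peaks over Mdn1, Sass6, Mrm1 and Pced1a were centred upstream of their annotated start or within 1 bp of it.

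Downstream peaks in all 4 lists were found at 50 genes. The strongest in SS was Pcgf6, a gene of a variant Polycomb repressive complex, with folds of 13.1 in SS and 15.9 in SC, against 4.64 in CS and 6.04 in CC and middles 154, 180, 218 and 156 bp downstream. Its intervals were 995, 867, 144 and 241 bp wide, and the CS peak covered 47050555 to 47050699 on chromosome 19. Flot2, a membrane raft gene, had folds of 12.8, 13.4, 4.35 and 5.08 in the same order, and Lsm11, a gene of histone mRNA processing, 11.4, 14.6, 5.00 and 5.76. Rarres1, the collagen modification gene Crtap, Ranbp17, Klhl36, Lrrc32, Klhl5 and Parp12 followed, with SS folds from 11.4 to 9.57. At Rarres1, Crtap, Ranbp17, Klhl36, Lrrc32 and Parp12 the SS downstream peak also covered the CS and CC peaks, but at Klhl5 these lay at another start site than those of SS and SC.

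Medium spiny neuron and immediate early genes had promoter peaks mainly in SS and SC: each list had 17 such genes in SS, while CS had 0 and 1 and CC had 1 and 2. Of all SS promoter genes, 29.4% had one in CS and 23.2% in CC, and the difference of the lists from this was not tested. The counts of downstream peaks follow 14 gene lists, each read against the share of all promoter genes of that list with a downstream peak, 25.7% in SS and 26.6% in SC, against 30.0% in CS and 32.2% in CC. Of 17 medium spiny neuron genes with an SS promoter peak, 6 had a downstream peak: the adenosine receptor gene Adora2a (fold 4.26), the D1 dopamine receptor gene Drd1 (3.76), the dynorphin gene Pdyn (3.48), Ebf1 (8.53), Foxp1 and Rgs9. In SC 4 of 15 did. No gene of that list had a promoter peak in CS and 1, Gnal, the olfactory-type G protein gene, had one in CC, which was a downstream peak of 143 bp and fold 5.38. For immediate early genes 5 of 17 in SS and 4 of 18 in SC had a downstream peak, among them Nptx2 (8.38 in SS), the nuclear receptor gene Nr4a2 (7.02 and 13.0), Egr4 and Egr2. In CS 0 of 1 and in CC 1 of 2 did, and that CC peak of Nr4a2 (fold 4.35, 67 bp) lay at another start site than its SS and SC downstream peaks.

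Glutamate and GABA receptor genes had downstream peaks at 8 of 32 promoter genes in SS and 8 of 29 in SC, such as Gabbr2, a GABA B receptor subunit gene (7.71 and 8.44), and the NMDA receptor subunit gene Grin2c (7.43 and 11.8). In CC it was 0 of 1. Synaptic scaffold and release genes had 9 of 28 in SS and 7 of 29 in SC, 0 of 7 in CS and 2 of 4 in CC. In CC these were the active zone scaffold gene Pclo (3.71, inside an SS downstream peak of 10.7) and Dlg2 (3.75). Interneuron markers had 2 of 9 in SS, Lhx8 (11.5) and the vesicular acetylcholine transporter gene Slc18a3 (3.17), 0 of 5 in SC and no promoter peak in CS or CC. Glial and vascular markers had 1 of 10 in SS, the endothelial Esam (4.13), 2 of 9 in SC, 1 of 2 in CS, the endothelial receptor gene Kdr (4.69), and 0 of 1 in CC. Developmental transcription factor genes had 11 of 28 in SS, including Hoxd1 (10.6) and Pax1 (9.67), 7 of 26 in SC, 1 of 1 in CS, Hoxa7 (4.82), and no promoter peak in CC. The counts in CS and CC are too few to be read against the background shares.

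Genes of basic cell functions had promoter peaks in all 4 lists. Cytosolic ribosomal protein genes had downstream peaks at 12 of 60 promoter genes in SS, 8 of 60 in SC, 2 of 22 in CS (Rpl35, 4.35, and Rpl37a, 4.45) and 2 of 14 in CC (Rpl11, 6.38, and Rpl37, 5.08). In each list this was a smaller share than among all promoter genes. Rpl37 had its downstream peak in SS, SC and CC, each with a second peak upstream of the same start, centred 586, 414 and 418 bp before it. Respiratory chain genes had 10 of 49, 12 of 60, 4 of 17 and 1 of 11, the CS genes being the complex I genes Ndufa7, Ndufa8, Ndufa9 and Ndufa11 and the CC gene the complex II gene Sdha (6.16). Proteasome subunits had 3 of 32, 7 of 34, 3 of 14 (Psmd9, 5.35, Psma2, 5.02, and Psmd13, 5.02) and 0 of 9. Splicing and RNA-binding factors had 5 of 41, 12 of 43, 1 of 13 (Srsf5, 4.02) and 1 of 6 (Hnrnph1, 4.55).

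General transcription and Mediator genes had downstream peaks at 10 of 57 promoter genes in SS, 12 of 60 in SC, 4 of 24 in CS and 8 of 18 in CC. The CC genes were Gtf2f1, Med30, Med7, Nelfb, Nelfcd, Polr2g, Taf12 and Taf2, and those of CS Med17, Nelfb, Taf2 and Taf6. Nelfb encodes a subunit of the complex that holds RNA polymerase II paused just downstream of the start, and its CS peak (4.29) and CC peak (5.05) were centred 115 and 269 bp downstream under an SS peak of 1185 bp. Taf2, a gene of the TFIID complex that binds core promoters, had its peaks at 297 bp in CS (4.63) and 186 bp in CC (5.24). In CC it also had a second peak 286 bp upstream of the same start. Chromatin-modifying enzyme genes had 17 of 60 in SS, 20 of 60 in SC, 3 of 13 in CS and 2 of 14 in CC. In CS they were the Polycomb methyltransferase gene Ezh2 (4.33), the deacetylase gene Hdac1 (4.38) and Nsd2 (4.07), and in CC Arid1a (4.66) and Suv39h2 (5.76). Genes of H2A.Z and of the complexes that exchange it had 3 of 23 in SS (Ep400, Actr5 at 13.2 and Actr8 at 5.13), 2 of 23 in SC, 3 of 10 in CS (Brd8, Ing3 and Yeats4) and 3 of 12 in CC (Brd8, Ing3 and Actl6b). Ing3, Brd8 and Yeats4 encode subunits of the p400 acetyltransferase complex, and Ing3 had folds of 4.10 in CS and 5.21 in CC.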

How the data were processed

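Chromatin of the nucleus accumbens was immunoprecipitated with an H2A.Z antibody in 12 samples, 3 per condition. The library source is labelled transcriptomic, while the molecule is genomic DNA. The authors deposited 1 annotated peak list per condition. Reads were processed on mm10 with cutadapt, HISAT, SAMtools and MACS2, per the submitters' processing notes. Not given in the sources used here are versions, calling settings, the control library, and whether replicates were pooled before calling. Sequencing depth and the libraries of histone H3 were not analysed here. Per the file headers, the deposited values of a peak are its fold enrichment (a ratio over background), a linear q-value and a signed distance, a score in bp. That distance runs from the start site to the middle of the peak, within 1 bp for 100% of peaks.

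Peaks with a distance of 100 to 300 bp on 19 autosomes were taken with Python 3.11.15, pandas 2.3.3 and numpy 2.4.6. Overlap meant at least 1 bp, and an upstream peak had its middle 1 to 1000 bp before the start. Intervals are 95% Clopper-Pearson intervals (scipy 1.17.1). The script recovered all planted cases when tested on simulated peaks. RefSeq tables (GRCm38.p6) gave symbols for 5859 of 6159 genes (95.1%) and the sequences. They held a promoter within 100 bp of the authors' start for too few downstream peaks (under 80%), so a comparison of base composition was void. Named genes are the strongest peaks of each list and class, skipping clone, Gm and Rik names, and members of 14 gene lists. The peaks and gene lists were chosen with earlier results of these data known. Alternatives were a narrower window, a stricter q-value, lists of equal length, X and Y, other reach and matching of the upstream peak, and other rules for cover and sharing. Results for a few genes are not reported here.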

Additional observations from a re-analysis of the deposited data

How the results depend on the processing

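Of 94 recomputed values, 46 stayed within the counting interval of the value reported and 48 left it. With the window narrowed to 150 to 250 bp, the share of the list was 7.29% in SS and 7.82% in SC, against 10.7% in CS and 11.9% in CC, as fewer peaks can fall in it. The median width was then 793, 727, 118 and 103 bp, and the percentile of the median fold 63.3 in SS and 63.5 in SC. The start site was included in 0.15% of CS and 0.18% of CC peaks. The SS peak over SC peaks was itself a downstream peak in 68.4%. Genes were shared with SS in 41.2% of SC, 12.7% of CS and 12.4% of CC cases, and CS genes with CC in 12.7%. With a −log10 q of at least 5, the share was 17.5% in CS and 18.5% in CC, the CS width 133 bp, the CS share including the start 3.37% and the share with an upstream peak at the same start 2.25% in CS and 2.55% in CC. With lists of equal length, the share was 23.9% in SS and 24.0% in SC, the width 1032 bp in SS, 904 bp in SC and 120 bp in CS, the cover by SS 90.1% for SC, 25.6% for CS and 29.7% for CC, and the genes shared with SS 63.3, 6.56 and 7.33%. Ranked by q-value, the median CS peak stood at the 37.1 percentile. An upstream reach of 500 bp gave 0.569% in SS and 0.996% in SC. Matching by gene name gave 15.3% in SS and 16.3% in SC, against 17.4% in CS and 14.2% in CC, and by position, added after the data were seen, 17.3, 19.1, 25.0 and 19.9%. Requiring the whole peak inside an SS peak gave 39.5% for SC and 97.6% for CS. Overlap in place of gene name gave 18.7% for CS in CC. The cause of these changes was not tested where the alternative does not itself set it. Including X and Y left the 4 shares within their intervals.

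No paired analysis was possible because each condition has 1 list and no column carries a replicate. Leaving out a replicate was likewise not run. The spread between samples is therefore unknown, and depth, background and calling settings cannot be told apart from the conditions.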

Other observations

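Downstream peaks also stood at genes of noncoding RNA. Protein-coding genes held 91.2% of them in SS and 90.7% in SC, against 87.3% in CS and 87.9% in CC. Among all peaks with an assigned gene in these lists the shares were 86.6, 87.4, 88.8 and 89.6%. Long intergenic RNA genes had 104 in SS and 112 in SC, against 59 in CS and 39 in CC, and microRNA genes 11, 17, 7 and 7. Among the host genes of microRNAs, Mir155hg had folds of 10.9 in SS and 16.1 in SC, and Mir9-3hg 9.43 and 9.77. Mir320 had a downstream peak in CS (5.02, 106 bp, at 70443566 to 70443672 on chromosome 14) and in CC (5.08, 117 bp). The oncogene-linked Pvt1 had one in CC (5.25). The strongest downstream peak of both CS and CC was at the predicted gene Gm26870, with a fold of 15.4 in each, at 3037972 to 3038258 and 3037979 to 3038257 on chromosome 9. It was followed by Gm10060 on chromosome 8, with 11.5 in CS and 9.82 in CC. The next in CC was Gm10717 (7.87), near Gm26870, at 3025460 to 3025598 on chromosome 9. How uniquely reads map at these places was not examined, so their high folds should be read with caution. These names were chosen after their values were seen.

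Chromosomes X and Y, left out above, differed between the lists. They held 76 downstream peaks among 465 peaks in SS (16.3%, 13.1 to 20.0%) and 97 among 586 in SC (16.6%, 13.6 to 19.8%). In CS they held 1 among 179 (0.559%, 0.0141 to 3.07%) and in CC 2 among 157 (1.27%, 0.155 to 4.53%). Peaks within 1000 bp of any start made up 71.8% of the X and Y peaks in SS and 71.7% in SC, against 5.59% in CS and 3.82% in CC. On the autosomes these shares were 62.2, 63.2, 81.6 and 83.0%.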
